A study of Mus musculus with 7 samples.

Results

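The 9 genes described here belong to the biology of the photoreceptor cilium, the sensory hair bundle and the inner ear: Pcdh15, Cdh23, Ush1g, Crb1, Cep290, Ahi1, Ttc8, Otogl and Coch. They were chosen by function with the log2 signals of these same arrays already known, so that their differences between the groups are given as descriptions. Where limma calls are given for them, these are counts only and no independent test. A probe set, the unit of the array, reads a short stretch of a gene of about 1 exon. All probe sets whose annotation gave exactly 1 symbol, among these 9, were taken, which gave 278 of the 53644 probe sets with 1 symbol and 9 of the 5017 genes measured. The table ends at 65535 rows, a limit of older spreadsheets, so it may hold only part of the array, and every count and rank given here is within it. No filter on dim signals was applied, so all 9 genes are counted.

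The arrays measured RNA of the retinal pigment epithelium (RPE), the pigmented layer behind the photoreceptors, dissected from mouse pups at postnatal day 5. The 3 Dicer1-deficient arrays came from Dicer1loxP/loxP;Dct-Cre mice, in which both copies of Dicer1, the gene of the enzyme that releases mature microRNAs, carry loxP sites. Dct-Cre places the recombinase under the promoter of dopachrome tautomerase, which is active in RPE and in melanocytes alike. The 4 control arrays are labelled only as control RPE, from matings of Dicer1 flox/+ mice carrying Dct cre with Dicer1 flox/flox mice, and their genotype is not given in the sources used here. Nothing in the labels says whether arrays were separate animals or pools, so the spread between them may be partly technical, and their small number limits the precision.

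In hair cells of the inner ear, cadherin 23 and protocadherin 15 join to form the tip link, the thread that pulls the transduction channel open when the hair bundle bends, and Sans, the product of Ush1g, is a scaffold at its upper end. Loss of any of these in people causes Usher syndrome type 1, in which deafness comes with retinitis pigmentosa. In photoreceptors the outer segment is a modified cilium: Cep290 and Ahi1 act at its transition zone, Ttc8 is a subunit of the BBSome that carries membrane proteins in cilia, and Crb1 holds the outer limiting membrane together. Otogl, encoding otogelin-like, belongs to the acellular membranes over the sensory cells of the inner ear, and Coch encodes cochlin, a secreted matrix protein of the cochlea that is also found in the eye.

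RefSeq promoters (GRCm38.p6, 250 bases before to 50 bases after the start) were matched to 7 of the 9 genes, with 8 promoters, and 3 of them are shown because a searched motif was found in them. Pcdh15 had the larger difference among the tip link genes and Coch the lower signals, while Ahi1 held the motif of ciliary genes. Capitals mark the motif. Pcdh15 is read from chr10:73821617-73821916, Ahi1 from chr10:20952297-20952596 and Coch from chr12:51593091-51593390, each on the plus strand and written 5′ to 3′.
Pcdh15: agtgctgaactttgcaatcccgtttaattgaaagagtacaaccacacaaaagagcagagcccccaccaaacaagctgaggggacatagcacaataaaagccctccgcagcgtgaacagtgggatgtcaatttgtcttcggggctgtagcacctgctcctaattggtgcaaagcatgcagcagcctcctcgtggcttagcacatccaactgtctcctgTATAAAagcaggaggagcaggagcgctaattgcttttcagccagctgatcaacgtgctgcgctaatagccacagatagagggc
Ahi1: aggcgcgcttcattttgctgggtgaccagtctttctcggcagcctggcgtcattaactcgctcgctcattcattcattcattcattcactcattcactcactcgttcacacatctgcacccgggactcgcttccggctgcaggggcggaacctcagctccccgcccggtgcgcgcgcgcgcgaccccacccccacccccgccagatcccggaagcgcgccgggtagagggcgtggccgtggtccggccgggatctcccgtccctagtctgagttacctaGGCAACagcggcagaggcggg
Coch: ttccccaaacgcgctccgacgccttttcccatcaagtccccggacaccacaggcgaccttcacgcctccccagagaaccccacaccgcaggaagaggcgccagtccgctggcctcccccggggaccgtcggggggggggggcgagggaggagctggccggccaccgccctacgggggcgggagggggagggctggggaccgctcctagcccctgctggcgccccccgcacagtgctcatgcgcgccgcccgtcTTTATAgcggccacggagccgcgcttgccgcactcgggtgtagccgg

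The half-site of the RFX X-box, GTTGCC, which is bound by RFX factors, regulators of ciliary genes, was found on the other strand of the Ahi1 promoter, 30 bases after the start. It was found in no other of the 8 promoters, and 12.5% of 32851 mouse promoters held it. The OTX and CRX core TAATCC, which 7.06% of promoters held, was in none of the 8. A TATA box, TATAAA, a search added after the sequences had been seen, lay 33 bases before the start of Pcdh15 on its own strand and 4 bases after the start of Coch on the other strand, against 13.6% of all promoters. Both strands were searched for each motif, and a match in such a window is a description of letters only.

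Control 4 stood apart from the other arrays. Its Pearson correlation with them across probe sets was 0.942 to 0.951, where controls 1 to 3 correlated at 0.986 to 0.988 among themselves, and its median log2 signal was 6.05 against 6.22 to 6.26 in the others. At Dicer1 itself, 14 of 28 probe sets lay lower in the deficient arrays, and the sources used here do not say which lie in the floxed stretch, so these signals check nothing about the labels. Only Dicer1 probe set 10402447 was lower without overlap, and 1 other was higher without overlap. At 10402447 control 4 read 6.46, controls 1 to 3 read 6.37, 6.28 and 6.11, and deficient arrays 5.76, 5.51 and 5.29. Dicer1 probe set 10402463, with the most negative difference (-0.92), is named after its values were seen. There control 4 read 3.80, below the 3 deficient arrays (5.20, 5.37 and 4.13), while controls 1 to 3 read 6.22, 6.42 and 6.83. Several results are therefore given both with and without control 4. In tissue of this kind fewer cells of a type and less RNA per cell cannot be told apart.

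Otogl had the clearest difference of the 9 genes. At its brightest probe set, used as the value of a gene throughout, the log2 signal was 7.94, 8.21, 7.71 and 7.70 in controls 1 to 4 and 9.68, 9.63 and 9.54 in the deficient arrays. All 3 deficient arrays lay well above all 4 controls, and they lay closer to each other than the controls did. The means were 7.89 ± 0.24 (SD, n = 4) and 9.62 ± 0.07 (SD, n = 3), a log2 fold change of 1.73 (SE 0.14), or 3.31-fold. In order of fold change, Otogl was gene 10 of 5017 from the highest. Without control 4 the log2 fold change was 1.67, and the mean over its 41 probe sets gave 1.27, with 5.03 in control and 6.30 in deficient arrays.

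The difference ran along nearly the whole of Otogl. Of its 41 probe sets 40 lay higher in deficient arrays, with a median log2 fold change of 1.15, and at 29 of them every deficient array exceeded every control. Over all probe sets, 49.7% lay higher and 7.35% were higher without overlap. A log2 fold change over 1 was seen at 23 Otogl probe sets and one over 2 at 8, where 1.13% and 0.153% of all probe sets were as high.

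Probe set 10372319 had the highest value of the gene, with 5.69, 6.12, 5.17 and 4.54 in controls and 8.53, 8.66 and 8.17 in deficient arrays. Its log2 fold change was 3.07, or 8.42-fold, and its control signals lay under the median of all probe sets (6.22), a range where no signal above background has been shown. Probe sets 10372310 and 10372315 followed at 2.94 and 2.90. The single probe set below 0, 10372298, read 4.49, 4.77, 4.57 and 5.06 in controls and 4.14, 4.49 and 4.41 in deficient arrays, a difference of -0.38 between dim signals that overlap.

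Bright and dim stretches of Otogl both lay higher. At the 8 probe sets whose control mean alone was above the median of all probe sets, the log2 fold change ran from 0.54 to 1.73 with a median of 1.28, and all 8 were positive. At the other 33 the median was 1.08, 32 were positive, and the largest differences of the gene were among them. In order of probe-set number the first 20 had a median of 0.65 and the last 21 a median of 1.67, but how that order follows the exons is not given in the sources used here. Control 4 set itself apart inside the gene too. At probe set 10372320 it read 5.99 where controls 1 to 3 read 3.51, 4.07 and 3.56, and at 10372317 it read 6.15 where they read 4.40, 3.75 and 3.57.

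**Figure D1:**
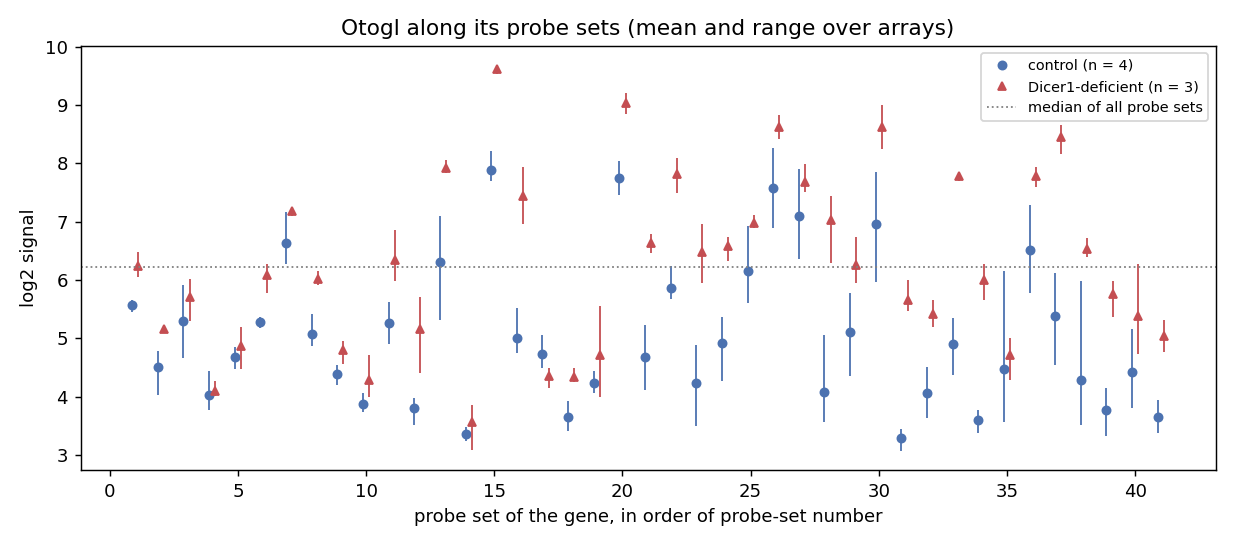
Log2 signal of Otogl at each of its 41 probe sets, in order of probe-set number, as the mean (point) and range (line) of the 4 control and 3 Dicer1-deficient arrays; the dotted line is the median of all probe sets (6.22). Deficient arrays lie higher at 40 of the 41, and the gap is widest in the later probe sets, up to 3.07 at 10372319.

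Because the same arrays had been seen when Otogl was chosen, its calls are only counted. In limma, with p adjusted by Benjamini-Hochberg across the whole table, 1 of the 9 genes, Otogl, passed an adjusted p of 0.05, in the higher direction, where 2.33% of all genes passed, 1.42% higher and 0.917% lower. At the level of probe sets 15 of the 278 passed higher, all of them in Otogl, where 0.656% of all probe sets passed higher, and 1 passed lower, in Coch, where 0.406% did. Without control 4 the count for Otogl was 24, where 1.19% of all probe sets passed higher. It was 9, 10 and 8 without controls 1, 2 and 3, and 8, 6 and 5 without deficient arrays 1, 2 and 3. The counts over all 53644 probe sets, in either direction, fell as well, from 570 with all arrays. They were 256, 211 and 225 without controls 1, 2 and 3, and 169, 167 and 144 without deficient arrays 1, 2 and 3.

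The genes whose centred signals were most like those of Otogl over the 7 arrays were Esr2, Otx1 and Mmp11. Their root mean square differences from Otogl on the log2 scale were 0.092, 0.220 and 0.220. Esr2, encoding estrogen receptor beta, went from a mean of 5.08 to 6.71, Otx1, a homeobox gene of the forebrain and eye, from 6.32 to 8.22, and Mmp11, encoding a metalloproteinase, from 8.67 to 10.07.

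Markers of tissues next to the RPE were also higher in some deficient arrays. The mean log2 signal of 3 measured genes of retinal progenitors, out of 9 listed, was 5.82, 5.87, 6.50 and 5.98 in controls and 7.30, 7.02 and 6.31 in deficient arrays. That of 8 of 19 listed lens genes was 7.89, 7.09, 6.34 and 7.96 in controls and 8.41, 7.26 and 8.81 in deficient arrays. Both means overlap between the groups, while Nr2e1, 1 of the 3 progenitor genes, did not overlap and passed limma (7.20 to 7.90). Of the other progenitor genes, Neurod4 lay higher with overlap (log2 fold change 1.83) and Atoh7 did not (-0.03). None of the 8 lens genes passed limma, and Mip among them ran the other way (6.63 to 6.06, with overlap). The part of such cells in the Otogl signal was not tested.

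Pcdh15, the lower strand of the tip link, lay higher in part of the deficient arrays. Its brightest probe set read 8.01, 8.08, 8.86 and 8.47 in controls and 9.60, 9.52 and 8.57 in deficient arrays. Deficient arrays 1 and 2 lay above all controls, while deficient array 3 lay below control 3. The means were 8.35 ± 0.39 (SD, n = 4) and 9.23 ± 0.58 (SD, n = 3), a log2 fold change of 0.88 (SE 0.30), or 1.83-fold. Without control 4 it was 0.91, and on the mean of its 41 probe sets it was 0.45, with 5.07 and 5.53 as means.

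Only 1 stretch of Pcdh15 was bright. The 10 consecutive probe sets from 10363923 to 10363932 were above the median of all probe sets in at least 1 group mean, 9 of them in the control mean alone, and each lay higher in deficient arrays, by 0.73 to 1.76 with a median of 1.00. The other 31 were dim, with 20 of them higher and a median of 0.18. At the 9 chosen by the control mean alone, the range was again 0.73 to 1.76, with a median of 1.03. Averaged over the bright stretch, the log2 signal was 7.08, 7.07, 8.0 and 7.05 in controls and 8.64, 8.48 and 7.95 in deficient arrays. Control 3 thus lay slightly above deficient array 3, and the other 3 controls lay close together below both.

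Within that stretch the groups were separate at 2 probe sets, 10363930 and 10363931. They were the only ones of the 41 that were higher without overlap, where 7.35% of all probe sets were. The second read 6.56, 7.03, 8.02 and 5.70 in controls and 8.91, 8.57 and 8.30 in deficient arrays, the largest difference of the gene at 1.76. Without control 4, the lowest array there, that difference was 1.39. Among the dim probe sets 1 was lower without overlap, where 6.62% of all probe sets were, and no Pcdh15 probe set passed the limma test with all 7 arrays. Without control 3, 1 of them passed higher, where 0.419% of all probe sets passed in either direction.

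Retinal markers also differed among the arrays, and in part in the order seen for Pcdh15. The progenitor mean given above was highest in deficient arrays 1 and 2, and control 3 (6.50) exceeded deficient array 3 (6.31), as at the brightest probe set of Pcdh15. Of its 3 genes only Neurod4 had control 3 above deficient array 3 (6.73 and 5.37). Nr2e1 (7.12 and 7.84) and Atoh7 (5.67 and 5.72) had the reverse order. The mean of 8 of 31 listed photoreceptor genes was 5.91, 6.37, 6.51 and 6.64 in controls and 7.06, 6.86 and 6.57 in deficient arrays, so that here control 4 and not control 3 exceeded deficient array 3. That of 5 of 18 listed inner retinal neuron genes ran otherwise, with 6.71, 6.74, 6.92 and 7.04 in controls and 6.88, 6.92 and 6.78 in deficient arrays. This mean joins genes that ran in opposite directions. Tfap2a was lower without overlap and passed limma (-0.99, adjusted p = 0.0470). Tfap2b was higher without overlap and did not pass (0.86, limma adjusted p = 0.0938). None of the 8 photoreceptor genes passed limma, 5 of them had control means under the overall probe-set median, and of the 3 progenitor genes Nr2e1 passed, as given above. The part of retinal cells in the Pcdh15 difference was not tested.

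**Figure D2:**
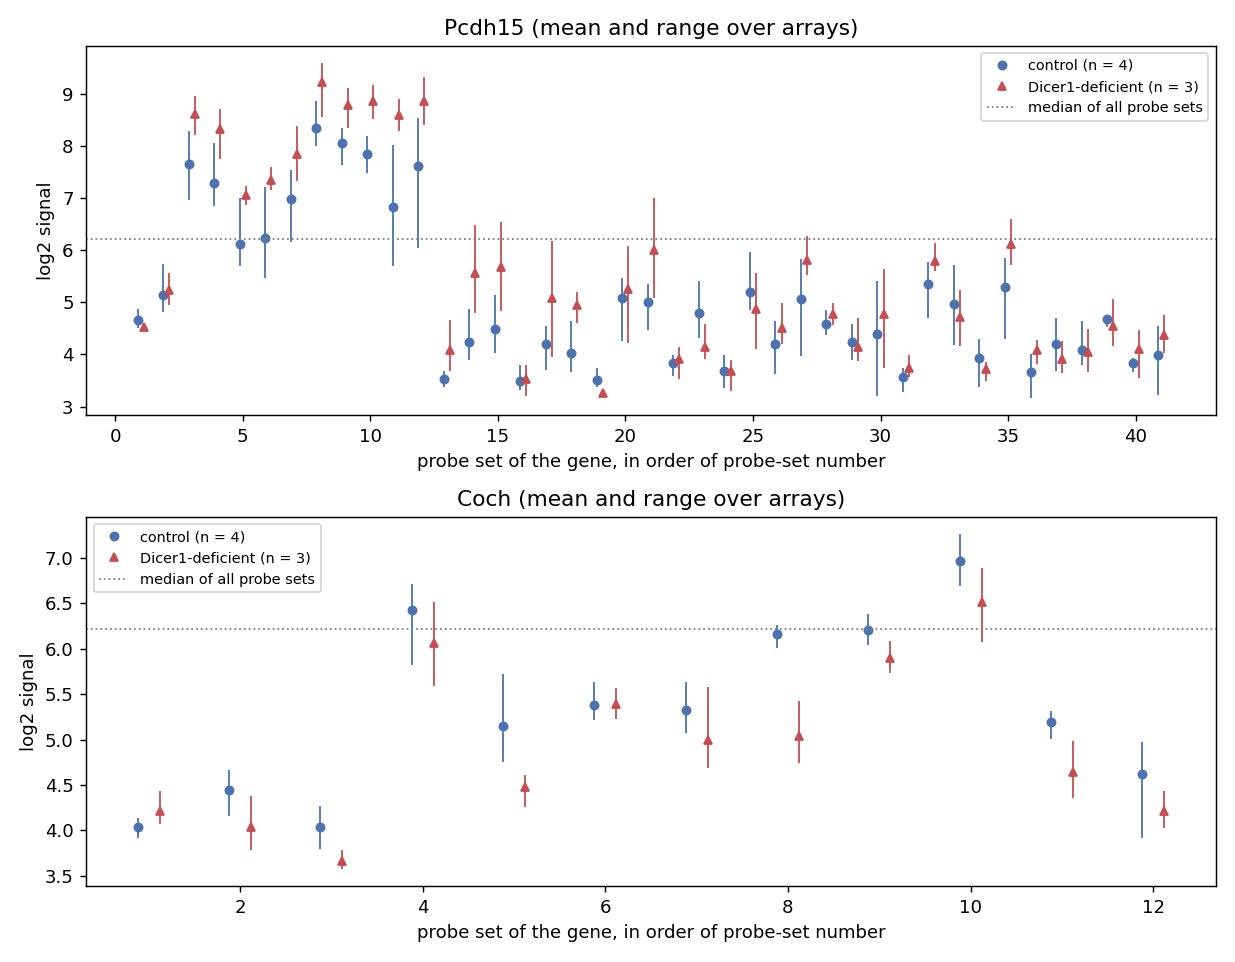
Log2 signal along the 41 probe sets of Pcdh15 (top) and the 12 of Coch (bottom), in order of probe-set number, as the mean (point) and range (line) of the 4 control and 3 Dicer1-deficient arrays; the dotted line is the median of all probe sets (6.22). Pcdh15 shows 1 bright stretch of 10 probe sets in which deficient means are higher, and 10 of the 12 Coch probe sets lie lower in deficient arrays.

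Cdh23, which forms the upper strand of the tip link, did not share the difference of Pcdh15. It read 8.22, 8.57, 8.46 and 8.86 in controls and 8.51, 8.86 and 8.35 in deficient arrays. The groups overlapped throughout, with means of 8.53 ± 0.27 (SD, n = 4) and 8.57 ± 0.26 (SD, n = 3) and a log2 fold change of 0.05 (SE 0.18). Whether the differences of Cdh23 and Pcdh15 themselves differ was not tested.

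Its 70 probe sets, the most of any of the 9 genes, were split between 39 higher and 31 lower, with a median log2 fold change of 0.07. With all arrays the largest difference was at 10369374, which read 6.18, 5.22, 6.21 and 4.34 in controls and 6.78, 6.65 and 6.79 in deficient arrays. The groups there were 1.25 apart without overlap, and 0.87 apart when control 4 was left out. At 10369311 the sign was negative and control 4 decided the size. It read 3.89 there against 5.25, 5.51 and 5.53 in controls 1 to 3 and 4.70, 4.58 and 4.59 in deficient arrays, and the log2 fold change was -0.42 with control 4 and -0.81 without it.

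Ush1g, the scaffold of the upper tip link, was dim in all arrays. It read 4.97, 5.19, 4.63 and 5.38 in controls and 4.63, 5.33 and 4.89 in deficient arrays, fully overlapping, with a log2 fold change of -0.09 (SE 0.22). Without control 4 the log2 fold change of Ush1g was 0.02. All 5 of its probe sets had both group means under the overall probe-set median, and its signal was not shown to exceed background.

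Crb1, of the outer limiting membrane, was dim too. It read 5.21, 5.10, 5.22 and 5.62 in controls and 5.49, 5.19 and 5.25 in deficient arrays, a log2 fold change of 0.02 (SE 0.15) with full overlap. Without control 4 the log2 fold change of Crb1 was 0.13. Its 15 probe sets were all under the overall probe-set median in both groups, and the 10 that lay higher did so by at most 0.37. Control 4 was the highest array for both Ush1g and Crb1 at their brightest probe sets.

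**Figure D3:**
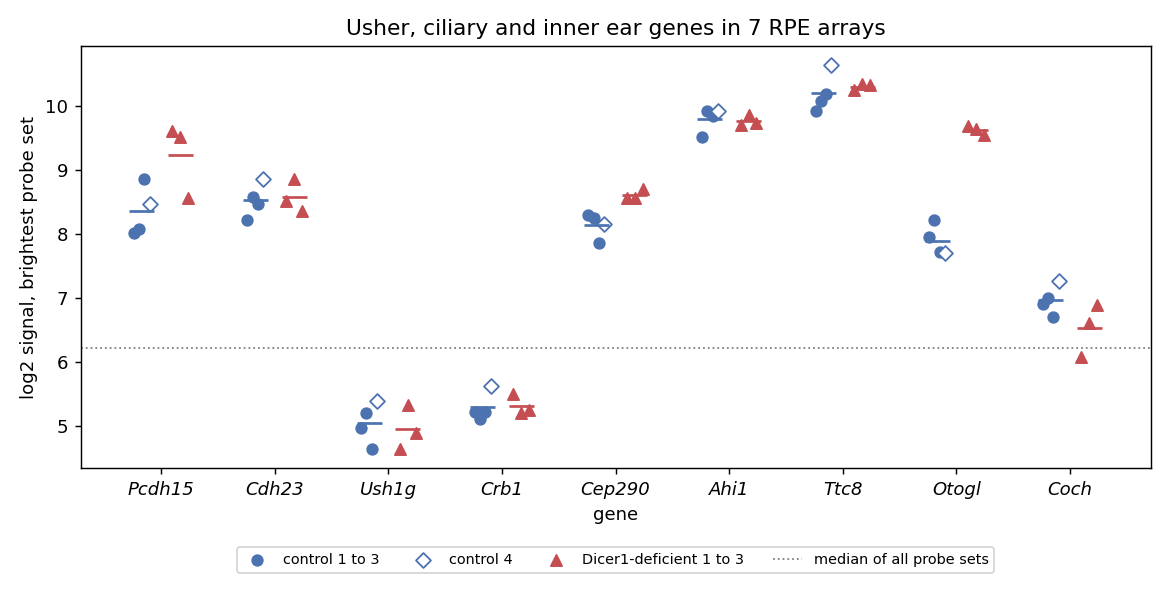
Log2 signal at the brightest probe set of each of the 9 genes in every array: circles are controls 1 to 3, open diamonds control 4, triangles the 3 Dicer1-deficient arrays, and bars the group means; the dotted line is the median of all probe sets (6.22). Only Otogl and Cep290 show no overlap between the groups, and Ush1g and Crb1 lie below the dotted line in all 7 arrays.

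Cep290, a protein of the ciliary transition zone whose loss causes Leber congenital amaurosis, lay slightly higher at its brightest probe set. It read 8.30, 8.24, 7.86 and 8.16 in controls and 8.55, 8.56 and 8.71 in deficient arrays. The groups did not overlap, a separation seen in 16.3% of all genes. The means were 8.14 ± 0.20 (SD, n = 4) and 8.61 ± 0.09 (SD, n = 3), a log2 fold change of 0.47 (SE 0.13), or 1.38-fold.

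Along the rest of Cep290 the differences ran both ways. On the mean of its 52 probe sets the log2 fold change was 0.003 with control 4 and -0.11 without it, and 28 lay higher and 24 lower. The groups were separate at 3 of the 52 probe sets in the higher and 1 in the lower direction. Over all probe sets these shares were 7.35% and 6.62%. The neighbour of the brightest one, 10366075, was among the higher ones, with 5.45, 4.95, 4.33 and 4.47 in controls and 5.50, 5.70 and 5.46 in deficient arrays, 0.75 apart. The last probe set in number order, 10366127, ran the other way without overlap, with 7.18, 7.31, 7.37 and 7.39 in controls and 7.01, 6.95 and 6.79 in deficient arrays. Its neighbour 10366126 had the most negative value of the gene, -0.90, with wide spread: 7.77, 6.69, 7.03 and 6.24 against 6.76, 5.39 and 5.92.

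Ahi1, encoding jouberin of the transition zone and the carrier of the X-box half-site shown above, differed little at its brightest probe set. It read 9.52, 9.91, 9.85 and 9.93 in controls and 9.70, 9.86 and 9.73 in deficient arrays, and the deficient values lay inside the control range. The means were 9.80 ± 0.19 (SD, n = 4) and 9.76 ± 0.08 (SD, n = 3), with a log2 fold change of -0.04 (SE 0.13).

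Of the 27 Ahi1 probe sets 11 lay higher and 16 lower, with a median of -0.09, and single arrays made some of the larger gaps. On the mean of these probe sets the log2 fold change was -0.11 with control 4 and -0.20 without it. At 10362007 control 4 read 5.18 against 8.43 to 8.84 in the other controls and 8.01 to 8.49 in deficient arrays. At 10362012 deficient array 3 read 4.53 and control 4 read 4.96, while the other 5 arrays lay between 6.98 and 7.34.

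Ttc8, the BBSome subunit, differed little along its probe sets. Its brightest probe set read 9.93, 10.07, 10.18 and 10.64 in controls and 10.24, 10.34 and 10.32 in deficient arrays. The deficient values lay inside the control range only because of control 4, since all 3 exceeded controls 1 to 3. The log2 fold change was 0.10 (SE 0.17) with control 4 and 0.24 (SE 0.09) without it. Its 15 probe sets stayed between -0.28 and 0.27, with 11 higher, and the mean over them gave 0.06.

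**Figure D4:**
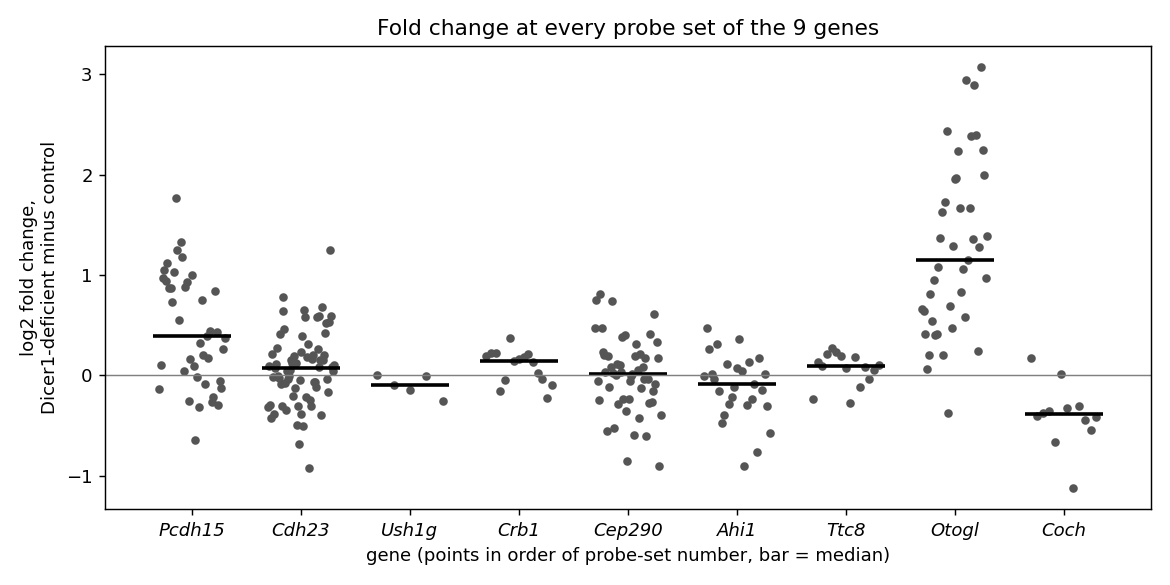
Log2 fold change (Dicer1-deficient minus control) at every probe set of the 9 genes, with points in order of probe-set number and a bar at the median. The medians are 1.15 for Otogl, 0.40 for Pcdh15 and -0.39 for Coch, and those of the other 6 genes lie between -0.09 and 0.14.

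Coch was the gene with lower signals. At its brightest probe set it read 6.90, 7.00, 6.69 and 7.27 in controls and 6.08, 6.60 and 6.89 in deficient arrays, where deficient array 3 lay inside the control range. The means were 6.97 ± 0.24 (SD, n = 4) and 6.52 ± 0.41 (SD, n = 3), a log2 fold change of -0.44 (SE 0.21). Without control 4, the highest control there, the log2 fold change was -0.34.

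Averaged over its 12 probe sets, Coch separated the groups. The mean was 5.37, 5.40, 5.40 and 5.15 in controls and 4.84, 4.97 and 4.98 in deficient arrays, a log2 fold change of -0.40 (SE 0.09), or -0.46 without control 4, the lowest control. On that mean limma counted Coch with Otogl among the calls, as 2 of the 9, where 5.86% of all genes passed on the mean of probe sets. Of the 12, 10 lay lower, with a median of -0.39, and 4 lay lower without overlap, where 6.62% of all probe sets did. How many of all genes separate the groups on the mean of probe sets was not counted.

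Probe set 10395667 had the largest gap of Coch. It read 6.01, 6.26, 6.23 and 6.16 in controls and 4.96, 4.74 and 5.42 in deficient arrays, and all 3 deficient arrays lay below all controls. Its log2 fold change was -1.13, while 0.856% of all probe sets lay below -1. The limma call there held without control 4 and without deficient array 3 and was lost without any other array. Only 2 of the 12 Coch probe sets were above the median of all probe sets in a group mean, so most of this gene was read at dim signals.

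Several marker lists also lay lower in deficient arrays. The mean of 11 of 13 listed fibroblast and scleral genes was 11.76, 11.87, 11.82 and 11.81 in controls and 11.41, 11.64 and 11.64 in deficient arrays, without overlap. None of the 11 passed limma, and Col3a1 (0.01) and Aspn (0.03) had log2 fold changes just above 0. The mean of 4 of 7 listed melanocyte and Schwann cell genes was 9.53 to 9.90 in controls and 9.16 to 9.26 in deficient arrays, also without overlap. The smallest fibroblast and scleral mean was in deficient array 1, which also had the lowest Coch signal at the brightest probe set and on the mean. The controls did not share such an order. Control 1 had their smallest fibroblast and scleral mean (11.76). Control 4 had their lowest Coch mean (5.15) and their highest signal at the brightest Coch probe set (7.27). The melanocyte and Schwann cell mean had another order, with 9.26, 9.22 and 9.16 in deficient arrays 1 to 3. The part of any of these cells in the Coch difference was not tested. The RPE genes, which also check the labelled tissue, were averaged over 10 of 25 listed. Their mean was 10.67 to 10.95 in controls and 10.49, 10.19 and 10.24 in deficient arrays 1 to 3, again without overlap. Of the RPE genes Kcnj13 passed limma in the lower direction, and all 10 had control means above the median of all probe sets.

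Of 181 listed genes of the Usher proteins, the BBSome, the ciliary base, intraflagellar transport, the Crumbs and Par complexes and the inner ear, 39 other than the 9 were measured. In limma, with p adjusted by Benjamini-Hochberg across the 5017 genes, 1 rose and none fell, which is 2.56% of the 39, close to the 2.33% of all genes. On the mean of probe sets 3 rose and 4 fell, 17.9% of the 39 where 5.86% of all genes passed, and at the brightest probe set without control 4 the counts were 2 and 2, 10.3% where 5.18% of all genes passed. The median log2 fold change was -0.10, with 14 positive and 25 negative, against -0.01 for all genes. Over all genes 48.1% were positive. Without control 4, 19 of the 39 were positive and 20 negative, with a median of -0.00056. All genes then had a median of 0.03, with 57.1% positive. On the mean of probe sets with all arrays, 13 were positive and 26 negative, with a median of -0.07, against -0.01 for all genes.

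The gene that rose was Armc9, encoding a protein of the ciliary base linked to Joubert syndrome, as is Ahi1. It read 10.62, 10.02, 10.04 and 9.87 in controls and 11.01, 11.05 and 11.01 in deficient arrays, all 3 above every control. Its log2 fold change was 0.89 (SE 0.18, limma adjusted p = 0.0484), and on the mean of its 29 probe sets it was 0.90 (limma adjusted p = 3.3e-04). At the brightest probe set the call was lost when control 2, control 3 or any deficient array was left out.

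The other 14 measured genes of the ciliary base list did not pass at the brightest probe set with all arrays, and the list's median was -0.04. Dcdc2a, encoding a doublecortin domain protein of cilia, had the next smallest p of the list and is named after its values were seen. It read 8.99, 9.09, 9.13 and 8.48 in controls and 8.32, 7.39 and 7.79 in deficient arrays, without overlap. Its log2 fold change of -1.09 (limma adjusted p = 0.0733) passed limma both when its probe sets were averaged (-0.84, adjusted p = 0.0198) and when control 4 was left out (-1.24, adjusted p = 0.0257). Tmem17 of the same list, also named after its values were seen, stood at -0.33 (limma adjusted p = 0.314). It passed limma in the same settings, at -0.38 (adjusted p = 0.0350) on the mean and -0.42 (adjusted p = 0.0409) without control 4.

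Of 6 intraflagellar transport genes, which move cargo along the cilium, none passed at the brightest probe set with all arrays, and the median of -0.08 turned to 0.03 without control 4. Wdr35, a subunit of the retrograde complex, read 9.71, 10.09, 10.04 and 10.23 in controls and 10.62, 10.63 and 10.70 in deficient arrays, without overlap. Its log2 fold change of 0.63 had a limma adjusted p of 0.0578, which was 0.0224 on the mean of probe sets (1.01) and 0.0204 without control 4 (0.71). Ift20, which sorts cargo at the Golgi, stood at -0.17 on the log2 scale (limma adjusted p = 0.489).

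Of the Usher and hair bundle list 3 genes were measured, all with negative values and none past the test, with a median of -0.33. Ptprq, a phosphatase of hair cell stereocilia, lay at a log2 fold change of -0.44 (adjusted p = 0.239, limma), and Fscn2, encoding retinal fascin, one of -0.32 (limma adjusted p = 0.546). The third, the sulfatase gene Arsg, stood at -0.33 and passed limma only on the mean of its probe sets, among the settings given here (-0.45, adjusted p = 0.0357). None of the 3 measured Bardet-Biedl genes passed, with a median of 0.02. Bbs10, a chaperonin-like gene of BBSome assembly, stood at 0.17 (limma adjusted p = 0.542) and Wdpcp, a planar polarity effector, at -0.10 (limma adjusted p = 0.833).

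Among 6 genes of the Crumbs and Par complexes, the partners of Crb1, none passed, and the median was -0.08 with control 4 and 0.07 without it. Epb41l5, which binds Crumbs, stood at 0.21 on the log2 scale (limma adjusted p = 0.708). Mpp2, a membrane guanylate kinase, had one of -0.35 (limma adjusted p = 0.712), which became -0.63 on the mean of its probe sets and passed there (limma adjusted p = 0.0118).

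Of 7 genes of inner ear matrix, ion transport and development, the list that Otogl and Coch belong with, none passed at the brightest probe set, and the median was -0.13 with control 4 and 0.02 without it. The developmental regulators Eya1 and Eya4 had the smallest p, with log2 fold changes of 0.42 (adjusted p = 0.150 in limma) and 0.36 (limma adjusted p = 0.334). On the mean of probe sets Eya1 rose by 0.53 (limma adjusted p = 0.0134).

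**Figure D5:**
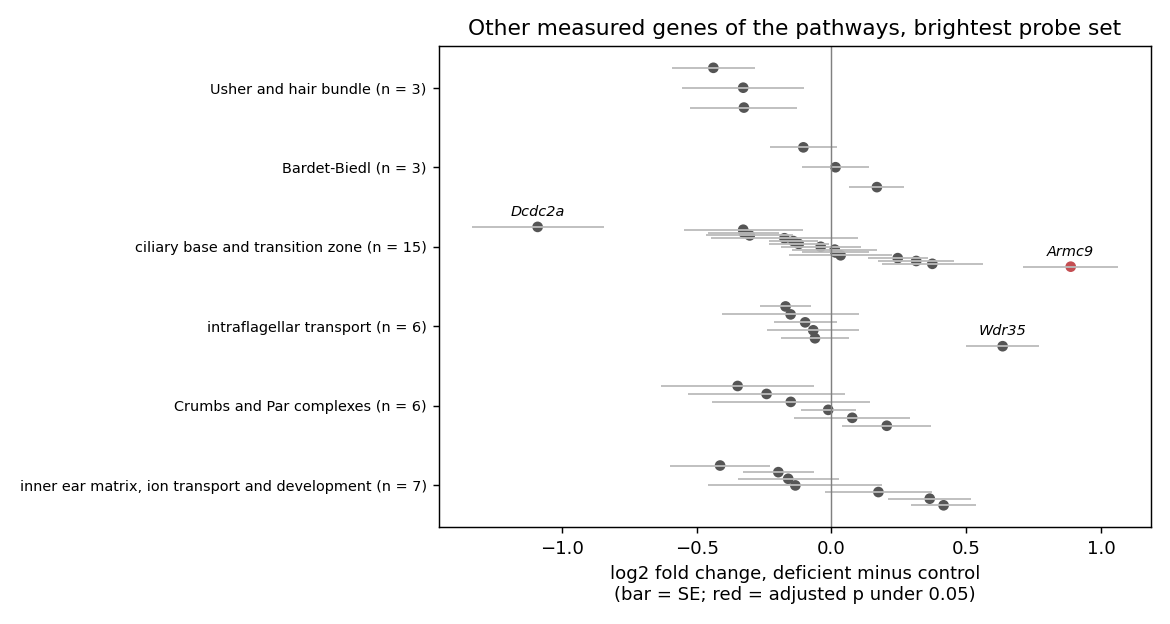
Log2 fold change (Dicer1-deficient minus control, brightest probe set) of the 39 measured pathway genes other than the 9, by list, with the SE as a bar; Sdccag8 stands in both the Bardet-Biedl and the ciliary base list. Armc9, in red, at 0.89 is the single gene past a limma adjusted p of 0.05, while Wdr35 (0.63) and Dcdc2a (-1.09), which did not pass, lie farthest from 0 in their lists.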

How the data were processed

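Total RNA of dissected RPE was measured on 7 Affymetrix arrays. The authors deposited log2 signals in 1 table, the log2 scale being read from the values, and RMA and Partek 6.6 are named in the submitters' processing notes without their roles. The sources used here give neither the genome build nor any probe filter. Quantile normalization, a step of RMA, would remove differences in total RNA. The table held 65535 probe sets and may be part of a longer one, of which 53644 had 1 gene symbol, 877 several and 11014 none here. Symbols were updated through RefSeq (4315 current, 689 updated, 13 unmatched), and genes outside the table were not analysed here. Otogl is annotated under the older symbol Gm6924, and 1 of the Pcdh15 probe sets under Gm9815.

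The brightest probe set of each gene, by its mean over the 7 arrays, was tested with limma 3.58.1 in R 4.3.3 (lmFit, then eBayes; two-sided p, adjusted by Benjamini-Hochberg across genes or across probe sets, threshold 0.05), all 7 arrays in 1 fit without covariates. The fit was checked on simulated data. Tables and figures were made with Python 3.11.15, pandas 2.3.3 and matplotlib 3.10.9. Groups came from the labels, and replicate numbers follow accession order and pair nothing.

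The members and lists were chosen with earlier results of these data known. All members were named. In each pathway list the genes past the threshold, or otherwise the 2 with the smallest p, were named, with the 3 genes most like each member past it. Alternatives were the mean or median of probe sets, quantile normalization again, median centring, a filter on dim genes, a variance trend, array weights and leaving out each array. Pcdh15 without its Gm9815 probe set was added after the data were seen.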

Additional observations from a re-analysis of the deposited data

Results flagged for a closer look

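In 3 of the 9 genes control 4 lay farther below the other controls, on the mean of the gene's probe sets, than Dixon's 95% value for 4 samples allows. The mean was 5.0 for Cep290 (5.43 to 5.52 in controls 1 to 3), 6.28 for Ahi1 (6.59 to 6.64) and 5.15 for Coch (5.37 to 5.40). Chance flags about 1 in 20 groups, and over all 5017 genes 11.2% had a control beyond that value, with control 4 in 9.71% of genes.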

How the results depend on the processing

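Against 117 genes past the test at the brightest probe set, 294 passed on the mean of probe sets, 176 on their median, 853 on the mean without control 4 and 385 with array weights, and leaving out 1 array gave 33 to 260, the highest without control 4. Against 570 probe sets past the test, array weights gave 1631 and leaving out 1 array 144 to 1236. The count of the 9 genes past it was 1, and 2 on the mean, the median and the mean without control 4 (Otogl and Coch) and with array weights (Otogl and Cep290). Otogl passed in each of these settings. For the 16 probe sets of these genes past the test, a filter on dim signals left 10, array weights gave 25 and leaving out 1 array 6 to 26. The count of pathway genes was 1, and 7 on the mean, 5 on the median, 12 on the mean without control 4, 2 with the filter or the variance trend, 5 with array weights and 0 to 4 with 1 array left out. The cause of these shifts was not tested. With 1 array left out, the log2 fold change of Otogl stayed between 1.67 and 1.83, of Pcdh15 between 0.69 and 1.21, of Cep290 between 0.37 and 0.52, and of Coch between -0.63 and -0.22. The dim filter removed Ush1g and Crb1, so 7 of the 9 were tested there. No paired analysis was possible because the labels give no shared replicate numbers. Signal over background was not measured by detection calls here, which limits what dim probe sets can show.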
